A study of Mus musculus with 3 samples.

Results

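The distal ends of the mouse autosomes were described by the di-tags that join them to other chromosomes in 3 Capture Hi-C (CHi-C) libraries. A distal window was defined as the last 5 Mb of a chromosome, counted back from the largest position listed for it over the 3 libraries, and chromosomes 1 to 19 gave 19 windows. The windows hold 9500 bins of 10 kb out of 264193 in the whole series. Of these, 8908 were covered by at least 1 di-tag end in Sample 3, 8922 in Sample 4 and 8926 in Sample 5, against 240218, 240384 and 240661 covered bins in all. The members were chosen by position alone. A proximal window was defined as the 5 Mb from position 3000000 of a chromosome, where the listed positions begin.

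CHi-C is a form of Hi-C, in which DNA that lay close together in fixed nuclei is ligated and sequenced as a pair of fragments, the di-tag, with a further step that enriches di-tags from selected regions. Samples 3, 4 and 5 are 3 libraries of 1 group, genomic DNA of mouse embryonic stem cells of strain C57BL/6, which are pluripotent cells kept in culture, and no treatment or genetic change is labelled. Whether the libraries come from separate cultures is not labelled, so every spread between them may be technical. For Sample 3 the label for the source conflicts with the label for the cell type, since it names foetal liver cells. The paper describes Samples 3, 4 and 5 as derived from mouse embryonic stem cells. Di-tags hold no expression values, and whether contacts typical of either cell type occur in Sample 3 was not tested.

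A mouse autosome carries its centromere next to one of its telomeres, so a chromosome has a centromeric (proximal) and a distal end. In many mouse nuclei the repeat-rich DNA around several centromeres gathers in bodies called chromocentres, while the distal telomeres carry no such block. A di-tag between chromosomes is called trans and a di-tag within a chromosome cis. Repeats at either kind of end cannot be mapped uniquely, so the windows hold the unique sequence next to them. In the RefSeq gene order of GRCm38.p6, which is another build than that of the positions, the last protein-coding gene is Wls on chromosome 3, Csf2ra on chromosome 19 and Cr2 on chromosome 1. Wls carries Wnt proteins to the cell surface, Csf2ra is a receptor subunit for the cytokine GM-CSF, and Cr2 is a complement receptor of B cells. Where these genes lie in the build of the positions was not tested.

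Sample 3 stood apart from the other libraries. With duplicates removed it held 9376907 di-tags, of which 52.0% were trans, while Sample 4 held 8596799 with 67.4% trans and Sample 5 held 8821161 with 71.6% trans. Among cis di-tag ends on autosomes, 46.4% in Sample 3 had their partner over 5 Mb away, against 23.5% in Sample 4 and 24.3% in Sample 5. Results are therefore given by library, and values over the 3 libraries also without Sample 3. A comparison of 1 library with 2 has no test. The trans autosomal di-tags numbered 4571762, 5512934 and 5994015 in Samples 3, 4 and 5.

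Trans di-tags between distal windows were more frequent than coverage predicted, by far most in Sample 3. The expected number for a pair of windows was the product of their shares of all trans autosomal di-tag ends, times the trans autosomal di-tags of the library. In Sample 3, 17595 di-tags joined distal windows of different chromosomes, against 11798 expected, a ratio of 1.49 (95% exact Poisson interval 1.47 to 1.51). Sample 4 had 13247 such di-tags and a ratio of 1.03 (1.01 to 1.04). Sample 5 had 13989 and a ratio of 1.03 (1.01 to 1.05). These intervals, like all those below, cover counting error only. All 3 ratios lay above 1, and Sample 3 lay apart from the others.

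The mean distal-distal ratio was 1.18 ± 0.267 (SD, n = 3), with p = 0.25 in an exact two-sided sign-flip permutation test, which is the smallest p that 3 libraries allow. Without Sample 3 the mean was 1.03 ± 0.00349 (SD, n = 2). The small excess in Samples 4 and 5 depended on how coverage was counted. When the ends of all autosomal di-tags, cis and trans, served as coverage, Sample 3 remained at 1.41, but Sample 4 moved to 0.935 and Sample 5 to 0.960. A smaller share of ends was trans in distal windows than over all autosomes. In Sample 4 it was 64.1% against 67.2%, and in Sample 5 it was 68.8% against 71.4%. Coverage from all ends therefore gave these windows more expected di-tags with each other.

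Distal windows were joined to the proximal windows of other chromosomes less often than coverage predicted. In Sample 3, 12587 di-tags joined them, a ratio of 0.669 (0.657 to 0.681). Sample 4 had 19652 and a ratio of 0.957 (0.943 to 0.970), and Sample 5 had 21139 and a ratio of 0.972 (0.959 to 0.985). The mean was 0.866 ± 0.171 (SD, n = 3; exact sign-flip permutation p = 0.25), and 0.964 ± 0.0108 (SD, n = 2) without Sample 3. Here the direction of the sum over all windows was the same in the 3 libraries, also with coverage from all ends, where the ratios were 0.734, 0.962 and 0.977.

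With coverage from trans ends, the ratio of observed to expected di-tags was higher among distal windows than between distal and proximal windows in each library. The distal-distal ratio divided by the distal-proximal ratio was 2.23 in Sample 3, 1.07 in Sample 4 and 1.06 in Sample 5. Its mean was 1.45 ± 0.671 (SD, n = 3; exact sign-flip permutation p = 0.25), and 1.07 ± 0.00839 (SD, n = 2) without Sample 3. With coverage from all di-tag ends the quotient was 1.92 in Sample 3 but turned below 1 in both other libraries, to 0.972 and 0.982, so that its direction outside Sample 3 depends on how coverage is counted (exact sign-flip permutation p = 1). Toward all other autosomal windows, which lie between the ends, the distal windows had ratios of 0.986, 0.999 and 0.998. Most trans di-tags of the distal windows fall there, so coverage from trans ends holds these ratios near 1 in advance. They do not show that the stretches between the ends lie at coverage. In Sample 3 the ratio was 1.38 at 5 to 10 Mb from the distal end and 0.727 at positions 8 to 13 Mb.

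Proximal windows of different chromosomes were joined to one another with ratios of 1.75 (1.72 to 1.78) in Sample 3, 1.11 (1.09 to 1.14) in Sample 4 and 1.08 (1.06 to 1.10) in Sample 5. In each library this was above the distal-distal ratio, with intervals that did not overlap. The libraries kept the same order for the proximal as for the distal-proximal pairs, with Sample 3 farthest from 1 and Sample 5 nearest to it.

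**Figure D1:**
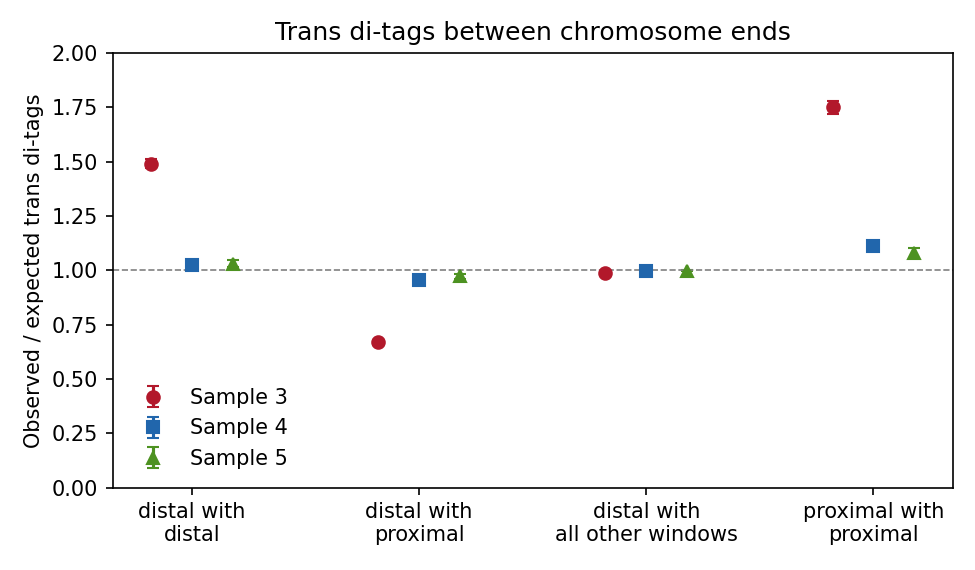
Observed over expected trans di-tags (y axis, no unit) for 4 kinds of window pairs (x axis) in the 3 libraries, with duplicates removed; bars are 95% exact Poisson intervals, many of them smaller than the symbols, and the dashed line marks a ratio of 1. Sample 3 lies at 1.49 for distal with distal, 0.669 for distal with proximal and 1.75 for proximal with proximal windows, and Samples 4 and 5 lie closer to 1 in each of these.

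The libraries differ in how much of their signal is cis, so the departures were also set against the cis di-tags. The distal-distal excess came to 1287 di-tags per 1000000 cis di-tags in Sample 3, 120 in Sample 4 and 167 in Sample 5. The distal-proximal departure was -1382 per 1000000 cis di-tags in Sample 3, -319 in Sample 4 and -244 in Sample 5. Sample 3 remained apart on this scale. The part of the trans share and of the long-range cis share in the differences between libraries was not tested.

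Nearly every distal window took part in the Sample 3 excess. Toward the other 18 distal windows together, the 19 windows had ratios from 0.885 to 1.90 in Sample 3, with a median of 1.57, against a median of 0.947 for all 492 autosomal windows measured toward the same partners. In Sample 4 the range was 0.933 to 1.13 with a median of 1.03, and in Sample 5 it was 0.963 to 1.12 with a median of 1.03. Ratios above 1 were found for 18 windows in Sample 3 and for 17 each in Samples 4 and 5, while 42.5%, 53.7% and 52.2% of all 492 windows lay above 1. In all 3 libraries 15 of the 19 windows lay above 1, against 22.0% of all windows, and in Samples 4 and 5 together 16 did, against 38.8%.

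No distal window passed limma over the 3 libraries, with the adjustment over all 492 windows, where 0 windows (0%) were called. The smallest adjusted p of a distal window was 0.569, and 0 of 19 had an unadjusted p under 0.05. Within Sample 3 alone, a binomial test with Benjamini-Hochberg adjustment called 18 of 19 distal windows higher, against a background of 33.1% of all windows, and 1 lower, against 46.1%. Such a test compares di-tags within 1 library and says nothing of the spread between libraries. It called 2 windows higher in Sample 4 (background 2.85%) and 2 in Sample 5 (2.03%), and 1 lower in Sample 4 (4.07%). The window of chromosome 2 was the 1 window called higher in all 3 libraries, and it was also the only one of all 492 (0.203%). In Sample 4 its adjusted p was 0.024 (binomial test within the library). These calls were not repeated with coverage from all di-tag ends.

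The distal window of chromosome 2 (chr2:176745457-181745456, build mm9) had the highest mean log2 ratio toward other distal windows, 0.40. Its 2556 di-tags in Sample 3 were 1.90 times the expected number, and the ratios in Samples 4 and 5 were 1.09 and 1.12. The windows of chromosome 3 (chr3:154599363-159599362) and chromosome 4 (chr4:150607086-155607085) followed. Chromosome 3 had ratios of 1.70 in Sample 3, 1.10 in Sample 4 and 1.12 in Sample 5. Chromosome 4 had 1.81, 1.06 and 1.05. With coverage from all di-tag ends the mean log2 ratio was 0.15 for chromosome 2, 0.48 for chromosome 3 and 0.097 for chromosome 4. The order of these windows therefore depends on how coverage is counted.

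With coverage from trans ends, these 3 windows were above 1 in each library, and all belong to long chromosomes. When Sample 3 was left out, limma called 3 distal windows higher toward distal windows, those of chromosomes 2, 3 and 17, against a background of 6.5% of all windows. Their mean log2 ratios over Samples 4 and 5 were 0.14 ± 0.0280 (SE, adjusted p = 7.0e-05), 0.15 ± 0.0326 (adjusted p = 0.00035) and 0.10 ± 0.0352 (adjusted p = 0.044). The window of chromosome 17 (chr17:90270120-95270119) had 876 di-tags in Sample 4, a ratio of 1.13, but its ratio in Sample 5 was 1.01. With 2 libraries the standard errors of limma draw on the variance of all windows, and the libraries may be technical repeats. The calls without Sample 3 were not repeated with coverage from all di-tag ends.

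The distal window of chromosome 19 (chr19:56336453-61336452), the shortest autosome, was the exception in Sample 3. It had 1102 di-tags with other distal windows there, a ratio of 0.885 (adjusted p = 6.5e-05, binomial test within the library). In Sample 4 its ratio was 1.00 and in Sample 5 it was 1.01. Of its 18 pairs with other distal windows, 3 lay above 1 in Sample 3, 11 in Sample 4 and 10 in Sample 5.

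Chromosome 15 (chr15:98484713-103484712) had the second lowest mean log2 ratio, 0.01, and its window had the most di-tag ends of the 19 in Samples 3, 4 and 5. Its ratio was 1.13 in Sample 3 but 0.933 in Sample 4, where it was called lower (adjusted p = 0.022, binomial test within the library), and 0.963 in Sample 5. Chromosome 16 (chr16:93314849-98314848) came next, with ratios of 1.30 in Sample 3, 0.973 in Sample 4 and 1.00 in Sample 5. The direction of these 2 windows therefore differed between Sample 3 and Sample 4.

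The size of the ratio followed chromosome length in Sample 3. Over the 19 chromosomes, Pearson's r between the log2 distal-distal ratio and the largest listed position was 0.902 and Spearman's rho was 0.939. In Sample 4 they were 0.254 and 0.268, and in Sample 5 they were 0.655 and 0.668. The 19 points of a library share its di-tags, since each pair of windows enters 2 of them, so the values are a description only. The expected numbers were scaled to the total of all trans pairs, and not within each pair of chromosomes. Windows of chromosomes with a larger share of trans ends thereby start slightly above 1. With expected numbers scaled within chromosome pairs, the mean log2 ratio of chromosome 19 moved from -0.054 to -0.014. That of chromosome 2 moved from 0.40 to 0.38. The correlations were not repeated with that setting. Against the number of trans ends in the window, r was -0.0312 in Sample 3, -0.486 in Sample 4 and -0.312 in Sample 5.

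Toward proximal windows the 19 distal windows had ratios from 0.584 to 0.936 in Sample 3, with a median of 0.656, against 0.909 for all windows. The medians were 0.956 in Sample 4 and 0.970 in Sample 5. All 19 windows lay below 1 in Sample 3 and 17 each in Samples 4 and 5, and 15 lay below 1 in all 3 libraries, against 33.3% of all windows. In Samples 4 and 5 together 15 also lay below 1, against 37.0%. The binomial test called 18 of them lower in Sample 3, against a background of 50.6%, 1 in Sample 4 (1.83%) and 0 in Sample 5 (0.61%). It called 0 of them higher in each library, against backgrounds of 31.1%, 2.64% and 0.813%. Over the 3 libraries limma called 0 of 19 (background 0%), and 0 had an unadjusted p under 0.05.

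The lowest mean log2 ratios toward proximal windows were those of chromosomes 4, 1 and 5, at -0.32, -0.30 and -0.29. Chromosome 4 had ratios of 0.584 in Sample 3, 0.948 in Sample 4 and 0.933 in Sample 5. Chromosome 1 (chr1:192195332-197195331) had 0.652, 0.909 and 0.910, and chromosome 5 (chr5:147533970-152533969) had 0.656, 0.902 and 0.923. In each of these windows the 3 libraries lay below 1. Without Sample 3, limma called 4 windows lower toward proximal windows, those of chromosomes 1, 4, 5 and 10, against a background of 4.67%, with mean log2 ratios of -0.14, -0.09, -0.13 and -0.08 and adjusted p from 0.00057 to 0.030. The limits given above for limma without Sample 3 hold here too.

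The 3 windows with the highest mean log2 ratio toward proximal windows were those of chromosomes 19, 17 and 3. For chromosome 19 the ratios were 0.936 in Sample 3, 0.962 in Sample 4 and 0.997 in Sample 5, so that its window stood nearest to 1 in both comparisons of Sample 3. Chromosome 17 had 0.778, 0.982 and 0.970, and chromosome 3 had 0.761, 0.946 and 0.968. With coverage from all di-tag ends the mean log2 ratio of all 3 windows turned above 0, to 0.14 for chromosome 19, 0.26 for chromosome 17 and 0.11 for chromosome 3.

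**Figure D2:**
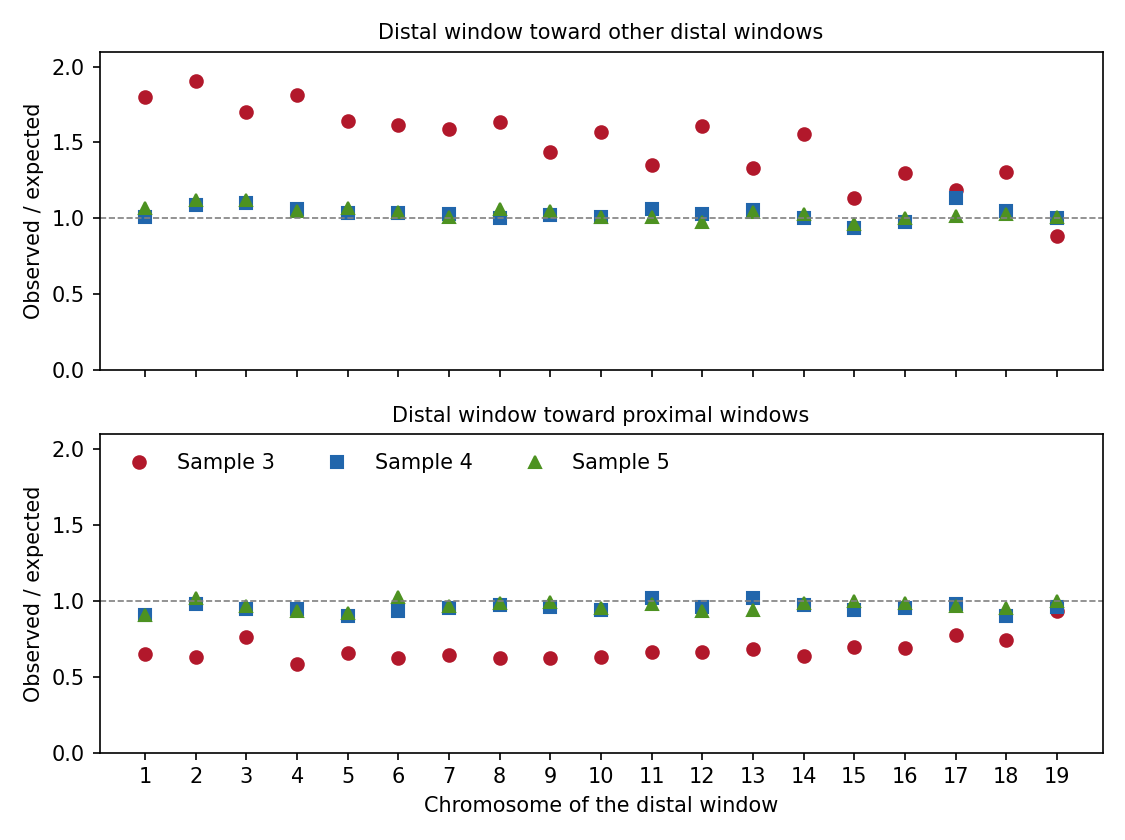
Observed over expected trans di-tags (y axis, no unit) of each chromosome's distal window toward the distal windows (upper panel) and the proximal windows (lower panel) of all other autosomes, with 1 symbol per library. In Sample 3 the upper values run from 1.90 on chromosome 2 to 0.885 on chromosome 19, and the lower values from 0.584 on chromosome 4 to 0.936 on chromosome 19.

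The 171 pairs of distal windows showed the same pattern. The di-tags per pair ranged from 12 to 286 in Sample 3 (median 90), from 18 to 223 in Sample 4 (median 73) and from 19 to 222 in Sample 5 (median 79). Their median ratios were 1.42, 1.04 and 1.03, against 0.982, 0.994 and 0.995 for all 113129 trans pairs of autosomal windows tested. A pair was tested where the expected number was at least 5 in every library. In Sample 3, 149 of 171 distal pairs (87.1%) lay above 1, against 47.0% of all pairs, and in Samples 4 and 5 98 (57.3%) and 102 (59.6%) did, against 48.6% and 48.7%.

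In all 3 libraries 58 distal pairs (33.9%) lay above 1, against 13.6% of all pairs, and 6 (3.51%) lay below 1, against 16.6%. In Samples 4 and 5 together 65 (38.0%) lay above 1, against 25.7%, and 36 (21.1%) lay below it, against 28.4%. Over the 3 libraries limma called 0 of the 171 pairs and 0% of all pairs. An unadjusted p under 0.05 was found for 60 distal pairs, of which 59 were higher, against a background of 2.64% of all pairs higher and 5.89% lower. Within Sample 3 the binomial test called 89 of the 171 pairs higher, against a background of 2.4% of all pairs, and 0 lower, against 1.8%. It called 0 in Sample 4 (background 0.00707%) and 0 in Sample 5 (0.000884%).

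The 89 pairs spread over most chromosomes. Chromosomes 2, 4, 7 and 8 each entered 14 of them. Chromosomes 15 and 18 entered 3 each and chromosome 13 entered 4, while chromosomes 17 and 19 entered 0. The windows of chromosomes 17 and 18 held the fewest di-tag ends in Sample 3, 14306 and 14523. Of their 18 pairs each, 15 and 16 lay above 1 there, against 3 of 18 for chromosome 19.

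Since no pair passed limma, the pairs named here were chosen after their values were seen, by their mean log2 ratio among the 89. The distal windows of chromosomes 2 and 3 were joined by 132, 66 and 72 di-tags in Samples 3, 4 and 5, with ratios of 3.23, 1.32 and 1.33. The windows of chromosomes 1 and 2 were joined by 172, 103 and 85 di-tags, with ratios of 2.35, 1.38 and 1.09. The windows of chromosomes 2 and 8 were joined by 163, 114 and 104 di-tags, with ratios of 2.56, 1.24 and 1.06. In each of these pairs the 3 ratios lay above 1 and Sample 3 was highest. Choosing among pairs called higher in Sample 3, by the highest mean, favours both traits, so they are no separate result.

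The pair of chromosomes 3 and 4 was close to coverage in Sample 5 alone, with 132, 73 and 62 di-tags and ratios of 2.69, 1.23 and 0.991. For chromosomes 2 and 4 the di-tags numbered 268, 104 and 110, with ratios of 2.77, 1.04 and 1.09. The lowest ratio of Sample 3 belonged to chromosomes 16 and 17, with 16 di-tags and a ratio of 0.569. The same pair had ratios of 1.26 in Sample 4 and 0.743 in Sample 5.

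**Figure D3:**
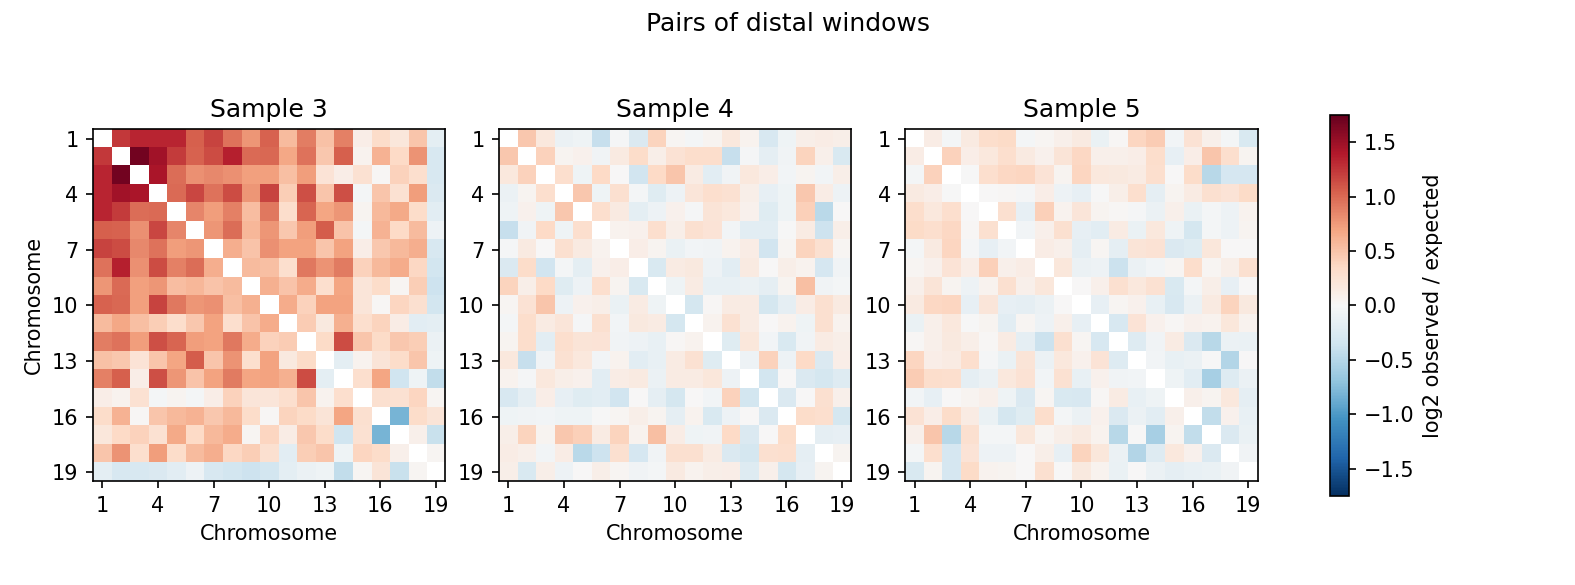
Log2 of observed over expected trans di-tags (colour) for the 171 pairs of distal windows, with chromosomes 1 to 19 on both axes and 1 panel per library; each pair is drawn on both sides of the white diagonal. In Sample 3, 149 pairs lie above 0, with the darkest cells among the longest chromosomes and the chromosome 19 row mostly below 0, while 98 pairs in Sample 4 and 102 in Sample 5 lie above 0.

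Of the 342 pairs of a distal window with the proximal window of another chromosome, 324 were tested. The other 18 were those with the proximal window of chromosome 14, where few di-tags were expected. The median ratios over the 342 pairs were 0.678, 0.960 and 0.966. Of the 324 tested, 116 (35.8%) lay below 1 in all 3 libraries, against 16.6% of all pairs, and 7 (2.16%) lay above it, against 13.6%. In Samples 4 and 5 together 122 (37.7%) lay below 1, against 28.4%, and 79 (24.4%) lay above it, against 25.7%. Over the 3 libraries limma called 0 of 324, although 101 had an unadjusted p under 0.05, against a background of 5.89% of all pairs lower and 2.64% higher, and 0 of the 101 were higher. The binomial test called 87 pairs lower in Sample 3, against a background of 1.8%, and 0 in Samples 4 and 5 (0.00177% each).

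Among the 87 pairs, chosen in the same way after their values were seen, the lowest mean log2 ratio was that of the distal window of chromosome 17 with the proximal window of chromosome 9. It had 5, 19 and 22 di-tags in Samples 3, 4 and 5, with ratios of 0.302, 0.687 and 0.708. The distal window of chromosome 4 with the proximal window of chromosome 17 had 28, 43 and 46 di-tags and ratios of 0.454, 0.699 and 0.711. The distal window of chromosome 10 with the proximal window of chromosome 11 had 77, 142 and 147 di-tags and ratios of 0.422, 0.762 and 0.769. All 3 pairs lay below 1 in each library, which the choice among pairs called lower in Sample 3, by the lowest mean, favours.

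In Sample 3 the distal-distal ratio was lowest for the pairs of chromosomes that differ most in length, and chromosome 19 made up much of that difference. For the 33 pairs whose largest positions differ by under 10 Mb the ratio was 1.58 (1.53 to 1.63). For the 47 pairs from 10 to 30 Mb apart it was 1.60 (1.56 to 1.64), and for the 55 pairs from 30 to 60 Mb apart it was 1.51 (1.47 to 1.55). For the 36 pairs over 60 Mb apart it was 1.21 (1.16 to 1.25), and this interval lay below the other 3. In Sample 4 the ratios in the same order were 1.05, 1.03, 1.02 and 1.01, and in Sample 5 they were 1.02, 1.02, 1.03 and 1.06, with intervals that overlapped within each library. Chromosome 19 enters 12 of the 36 pairs over 60 Mb apart. Without its pairs the Sample 3 ratios were 1.58, 1.60, 1.55 and 1.46.

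**Figure D4:**
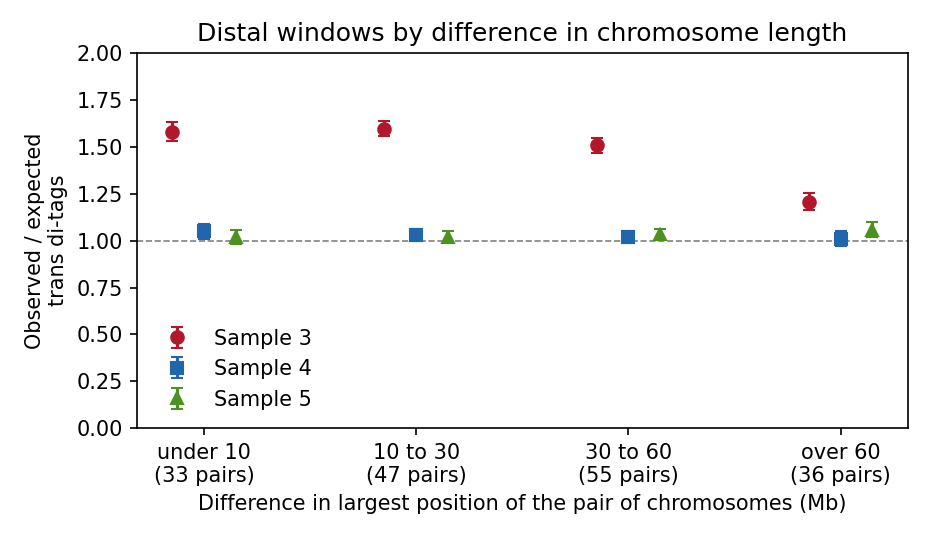
Observed over expected trans di-tags between distal windows (y axis, no unit), with the pairs of chromosomes grouped by the difference in their largest listed positions (x axis, Mb); bars are 95% exact Poisson intervals and the dashed line marks 1. Sample 3 falls from 1.58 in pairs under 10 Mb apart to 1.21 in pairs over 60 Mb apart, and Samples 4 and 5 lie between 1.01 and 1.06 in all 4 groups.

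The end of a longer chromosome was joined to a distal window more often than the stretch of it that lies at the same distance from the centromere. For 138 pairs of chromosomes, the distal window of the shorter one was set against both stretches of the longer one. In Sample 3 the ratio was 1.21 (1.18 to 1.23) for the stretch at the same coordinates and 1.47 (1.45 to 1.49) for the distal window. In Sample 4 the ratios were 0.997 (0.976 to 1.02) and 1.02 (1.00 to 1.04), and in Sample 5 they were 1.01 (0.988 to 1.03) and 1.03 (1.01 to 1.05). The distal window was the higher in each library, with overlapping intervals in Samples 4 and 5.

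Within the windows the ratio was highest at the very end. When only segments of 1 Mb at the same distance from their own chromosome ends were paired, the last 1 Mb gave 853 di-tags and a ratio of 1.88 (1.75 to 2.01) in Sample 3, against 1.38 (1.26 to 1.50) for the segments from 4 to 5 Mb. In Sample 4 the last 1 Mb gave 607 di-tags and a ratio of 1.25 (1.15 to 1.35), against 0.965 (0.877 to 1.06). In Sample 5 it gave 595 di-tags and a ratio of 1.13 (1.04 to 1.22), against 0.977 (0.890 to 1.07). The terminal segment was the highest of the 5 in each library, and in Samples 3 and 4 its interval lay above that of the innermost one. In Sample 5 the segments from 2 to 3 Mb came close to the terminal ones, with a ratio of 1.10 (1.02 to 1.18).

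Partners of the distal windows were also followed along the other chromosomes. In Sample 3 the ratio declined from 1.59 at 0 to 1 Mb from the distal end to 1.38 at 5 to 10 Mb, 1.17 at 20 to 25 Mb and 0.994 at 45 to 50 Mb. Counted from the centromeric side, it was 0.615 at positions 3 to 4 Mb, 0.733 at 7 to 8 Mb and 0.752 at 28 to 33 Mb. The departure in Sample 3 therefore reached well past the 5 Mb of the windows at both ends. In Sample 4 the ratios were 1.08 in the last 1 Mb and 0.931 at 3 to 4 Mb of position, and in Sample 5 they were 1.06 and 0.948. Between 5 and 50 Mb from the distal end, Sample 4 lay between 0.995 and 1.03 and Sample 5 between 0.983 and 1.02.

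**Figure D5:**
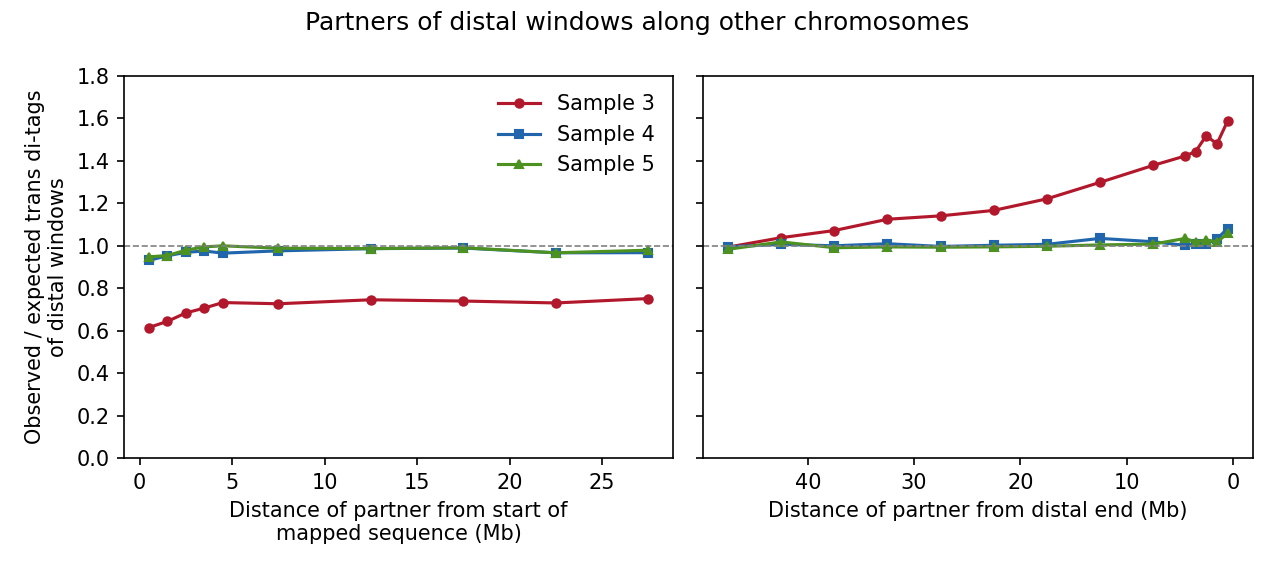
Observed over expected trans di-tags of the 19 distal windows (y axis, no unit) with segments of other autosomes, by the distance of the segment from the start of mapped sequence at position 3000000 (left, Mb) and from the distal end (right, Mb, running down to 0); lines join the segments of 1 library. Sample 3 rises from 0.615 beside the start to 1.59 at the distal end, and Samples 4 and 5 stay between 0.931 and 1.08; on short chromosomes a segment can enter both panels.

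Summed over the 19 windows, the distal ends had more di-tag ends than their length alone would give. On 3.93% of the listed autosomal length they held 5.25%, 5.09% and 4.94% of autosomal di-tag ends in Samples 3, 4 and 5. In each library 13 windows lay above the mean coverage of their own chromosome and 6 below it, from 0.340 to 2.69 times that mean in Sample 3. The ends per window ranged from 14306 on chromosome 17 to 105054 on chromosome 15 in Sample 3. Which regions were captured is not given in the sources used, and the part of the capture in these differences was not tested.

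Of the ends in distal windows, 50.3% in Sample 3, 64.1% in Sample 4 and 68.8% in Sample 5 had a trans partner, against 51.6%, 67.2% and 71.4% of all autosomal ends. The difference was -2.32 ± 0.921 percentage points (SD, n = 3; exact sign-flip permutation p = 0.25), and lower in 3 of 3 libraries. Without Sample 3 it was -2.83 ± 0.398 percentage points (SD, n = 2). Against the rest of its own chromosome, the distal window had the lower trans share on 11 of 19 chromosomes in Sample 3, on 14 in Sample 4 and on 13 in Sample 5. The mean difference over the 19 chromosomes was nevertheless above 0 in Sample 3, at 1.82 percentage points, and it was -1.25 in Sample 4 and -1.08 in Sample 5.

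Cis partners over 5 Mb away were less frequent, and those from 100 kb to 1 Mb away more frequent, for distal windows than for all autosomal ends in each library. Partners over 5 Mb away made up 36.7% of cis ends in distal windows against 46.4% of all autosomal cis ends in Sample 3, 18.97% against 23.52% in Sample 4 and 19.9% against 24.3% in Sample 5. Partners from 100 kb to 1 Mb away made up 24.7%, 26.8% and 24.6%, against 20.0%, 24.1% and 22.2%. Partners under 10 kb away made up 7.14% against 6.78% in Sample 3, but 21.8% against 22.2% in Sample 4 and 24.1% against 24.4% in Sample 5. An end window can have distant partners on only 1 side, and its part in this was not tested. A distal window was joined to the proximal window of its own chromosome by 1280, 1333 and 1389 cis di-tags. Relative to the trans coverage expectation the ratios were 1.12 (1.06 to 1.18), 1.08 (1.03 to 1.14) and 1.07 (1.02 to 1.13). That expectation is built from trans di-tags, and no other cis window pairs were set against it. The ratios therefore do not single out the 2 ends of the same chromosome.

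With duplicates removed, no pair of 10 kb bins between distal windows was called in more than 1 library. In Sample 3, 82 such bin pairs had at least 2 di-tags, of which 12 passed the binomial test, against a background of 23.5% of all trans bin pairs with at least 2 di-tags. In Sample 4, 10 of 49 passed (background 32.1%), and in Sample 5, 17 of 63 passed (28.8%). The shares were below or near the background in each library. Between distal and proximal windows, 14 of 63, 10 of 81 and 13 of 71 bin pairs passed, and 0 were shared. With duplicates removed, the share of all trans bin pairs called in more than 1 library was not counted. The 0 counts of shared bin pairs therefore have no background here. With duplicates retained, 9766 of 10930 distal bin pairs passed in Sample 3 (background 91.3%). In Sample 4, 6697 of 7422 passed (92.2%), and in Sample 5, 6998 of 7741 passed (92.2%). Of these, 0 were called in all 3 libraries, against 11 of the 7497487 trans bin pairs called in any library. Of the 23432 distal bin pairs called in any library with duplicates retained, 29 (0.124%) were called in at least 2, against 0.0881% of all trans bin pairs called in any library. With duplicates removed, a distal bin pair held at most 4 di-tags in each library.

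One example, chosen after its values were seen, joined chr1:194675332-194685331 to chr5:151063970-151073969 with 4 di-tags in Sample 3 and under 2 in both other libraries. At this depth a lack of shared bin pairs does not show that none exist. The excess of Sample 3 was thus measured over whole windows, where 17595 di-tags fell on 171 window pairs.

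Since the study concerns duplicate di-tags, the copies of each distal-distal di-tag were taken from the lists that retain duplicates. The mean number of copies was 7.49, 6.11 and 5.65 in Samples 3, 4 and 5, against 6.92, 5.61 and 5.13 for all trans autosomal di-tags. The ratio was 1.09 ± 0.00977 (SD, n = 3; exact sign-flip permutation p = 0.25) and above 1 in 3 of 3 libraries, and 1.10 ± 0.00917 (SD, n = 2) without Sample 3. Against trans di-tags whose bins fall in the same deciles of coverage, the ratio turned to 0.972 ± 0.00760 (SD, n = 3; exact sign-flip permutation p = 0.25), at 0.980, 0.965 and 0.970 in Samples 3, 4 and 5. With duplicates retained, the distal-distal ratios of the 3 libraries were 1.51, 0.997 and 1.03, so that Sample 4 crossed 1.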

How the data were processed

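For each of the 3 libraries the authors deposited 1 list of di-tags with duplicates removed and 1 with duplicates retained. A deposited line is 1 di-tag and gives chromosome, position and strand for each read, so that lines were counted here. With HiCUP the authors cut reads at the junction of the ligated fragments, aligned forward and reverse reads separately, kept unique alignments and removed invalid di-tags. The submitters' processing notes name Bowtie 1.1.0 and build mm9. The lists hold no measured level, count table or p-value.

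Lists with duplicates removed were used unless stated otherwise. Autosomes were tiled into 492 windows, with the proximal window first, steps of 5 Mb, 1 shorter remainder and the distal window last, giving 114281 trans pairs. Expected numbers were scaled so that all trans autosomal pairs summed to the observed total. Window pairs with an expected number of at least 5 in every library were tested (113129). The log2 of (observed + 0.5) over (expected + 0.5) was tested against 0 with limma 3.58.1 (lmFit and eBayes with a trend, R 4.3.3), with Benjamini-Hochberg adjustment over all windows or pairs and a threshold of 0.05. Within each library a two-sided binomial test was adjusted in the same way. Bin pairs of 10 kb with at least 2 di-tags were tested for higher numbers, adjusted over all possible pairs of covered bins. For these bin pairs the expected number came from each bin's share of all di-tag ends, cis and trans, and from all di-tags of the library. Single ratios over the 3 libraries were tested with an exact sign-flip permutation test. Intervals are 95% exact Poisson intervals. The expected numbers were tried on the trans ends of Sample 3 joined at random. The tests of window pairs were tried on simulated Poisson counts with the same change in every library. No simulated library stood apart as Sample 3 does, so the simulation does not check the tests for that case. Python 3.11.15, numpy 2.4.6 and scipy 1.17.1 were used.

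The windows, tests and alternatives were chosen with earlier results of these data known. Windows were named by rule, as the 3 highest and 3 lowest mean log2 ratios in each comparison. Pairs were to be named among those past the limma threshold, of which there were none. The calls of single libraries, the proximal-proximal pairs, the cis scaling, the comparison with a chromosome's own proximal window, the distance profiles, the groups by chromosome length, the counts above or below 1 in Samples 4 and 5 and the bin pairs called in at least 2 libraries with duplicates retained were added after seeing the data. Sequence is not shown, since no genome of build mm9 was used here.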

Additional observations from a re-analysis of the deposited data

How the results depend on the processing

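The limits come first from the libraries. Sample 3 holds most of the distal-distal excess, 3 libraries allow no p below 0.25 in a sign-flip test, and counting error is small for sums but larger for single pairs. Leaving out 1 library at a time, the mean distal-distal ratio ranged from 1.03 to 1.26, the distal-proximal ratio from 0.813 to 0.964 and their quotient from 1.07 to 1.65. With coverage from all di-tag ends the mean quotient was 1.29, below 1 in 2 of 3 libraries. The spread between libraries comes mostly from Sample 3, so a mean that moves by less than this spread is not shown to be stable. With last 2 Mb windows the distal-distal ratios were 1.63, 1.11 and 1.05, and with 10 Mb windows they were 1.39, 1.02 and 1.02.

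Counts of calls changed with the test and the libraries. Against 0 over the 3 libraries, limma with 1 library left out called 0 to 3 distal windows toward distal windows, 0 to 4 toward proximal windows, 1 to 8 distal-distal pairs and 4 to 6 distal-proximal pairs. Without Sample 3, 6.5% of all windows were called higher toward distal windows and 4.67% lower toward proximal windows. The 1 distal-distal pair called without Sample 3, chromosomes 7 and 15, was lower than expected (background 0.285% of all pairs), while the 2 called without Sample 4 (0.0186%) and the 8 called without Sample 5 (0.0601%) were higher. The distal-proximal pairs were all called lower, 6, 4 and 6 of them without Samples 3, 4 and 5, against 0.285%, 0.0672% and 0.184%. In Sample 3 the binomial test called 18 distal windows higher toward distal windows and 1 lower, against 33.1% and 46.1% of all windows. In Sample 4 it called 2 higher and 1 lower (2.85% and 4.07%). In Sample 5 it called 2 higher (2.03%), and 1 was called higher in all 3 libraries (0.203%). Toward proximal windows it called 18 lower in Sample 3 (50.6%) and 1 lower in Sample 4 (1.83%). In Sample 3 it called 89 distal-distal pairs higher (2.4% of all pairs) and 87 distal-proximal pairs lower (1.8%). With coverage from all di-tag ends, limma called 6 distal-proximal pairs lower (background 0.178%). The cause was not tested.

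The copy ratio turned to 0.972 within the same coverage deciles. The difference in trans share came to -0.169 percentage points against each chromosome's own other windows and to -1.31 without the 1% most covered bins. Directions of named windows also turned. Toward distal windows, the mean log2 ratio with 1 library left out ranged from -0.088 to 0.0070 for chromosome 19, from -0.077 to 0.064 for chromosome 15 and from -0.019 to 0.19 for chromosome 16, with the turned sign in each case when Sample 3 was left out. That of chromosome 15 was also -0.20 with coverage from all ends and -0.035 with duplicates retained. Toward proximal windows, with coverage from all ends, the values were 0.14 for chromosome 19, 0.26 for chromosome 17 and 0.11 for chromosome 3. The distal-distal and distal-proximal bin pairs shared by all 3 libraries numbered 0 in every setting tried. With duplicates removed, sharing was not counted over all trans bin pairs, so those 0 counts have no background. With duplicates retained, 11 of the 7497487 trans bin pairs called in any library were shared by all 3. There, 63 distal-distal or distal-proximal bin pairs were called in at least 2 libraries (0.124% and 0.132% of those called in any, against 0.0881% of all trans bin pairs). No paired analysis was possible because the libraries form 1 group.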
